A study of Drosophila melanogaster with 26 samples.

Results

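The regions described here are the ChIP-seq peaks that lie on U, the sequence of Release 5 of the Drosophila genome (dm3) that collects scaffolds without a known chromosome. All peaks on U or on its companion Uextra were taken from 26 peak lists and merged where neighbouring peaks shared at least 50 bp. U held 3972 of the 50336 peaks, Uextra held none, and merging left 824 regions on U out of 13525 regions in all. The regions spread over U between positions 3736 and 10043564. For comparison, 1215 regions lay on the mapped heterochromatin sequences, whose names end in Het, and 11481 on the chromosome arms.

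The study asked where the chromatin remodeling factors ACF1 and RSF-1 bind in embryos, and used mutants that lack either protein, pre-immune serum and input chromatin as controls. ACF1 was precipitated from acf1 embryos with the rabbit antibodies Rb1 (1 library) and Rb2 (2), and from WT embryos with Rb1 (1), Rb2 (3) and the rat monoclonal antibody 3F1 (3). RSF-1 was precipitated from rsf-1 embryos (1) and from WT embryos (2), WT chromatin was also precipitated with pre-immune serum (2 libraries named Rb2, 1 named Rb), and input was sequenced from acf1 (2), rsf-1 (1) and WT (7) chromatin. Every embryo was 0 to 12 h old, is labelled with the strain Oregon-R and was fixed with 3.7% formaldehyde. The acf1-7 and rsf1-3602 alleles are deletions left by imprecise excision of a P-element, and the labels give no further allele in any group. Chromatin came in 10 batches: the 3F1 libraries in batches 1 to 3, acf1 chromatin in batches 4 and 5, rsf-1 chromatin in batch 9, and the other WT libraries in batches 6, 7, 8 and 10. No batch held both mutant and WT chromatin, so that genotype and batch cannot be told apart. Libraries of one batch share their chromatin, nothing in the labels says that batches came from separate fly cultures, and p-values over batches measure only the spread between these preparations. The libraries made with 3F1 differed from the others also in the beads and in the amount of antibody.

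ACF1 and RSF-1 are subunits of remodeling complexes that contain the ATPase ISWI, which slides and spaces nucleosomes. U consists largely of heterochromatic, repeat-rich scaffolds that were strung together in arbitrary order, so that neighbours on U are neighbours in the genome only within one scaffold. Repeated sequence is often collapsed in an assembly. A sequence that occurs in more copies in the flies than in the assembly gathers more reads at one place, in input chromatin as well as after ChIP.

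Antibody libraries and inputs had overlapping numbers of U peaks, but these peaks took a much larger share of every input list than of any antibody list. The 13 antibody libraries had 100 to 196 U peaks (median 152) and the 10 inputs 119 to 474 (median 162.5). With 3F1, 106, 196 and 124 U peaks were called. There were 182 with Rb1 and 158 and 107 with Rb2 in acf1 chromatin, against 155 with Rb1 and 162, 128 and 168 with Rb2 in WT chromatin. RSF-1 gave 100 in rsf-1 chromatin, against 110 and 152 in WT chromatin. The inputs had 136 and 125 U peaks in acf1 and 119 in rsf-1 chromatin, against 185, 474, 282, 164, 161, 172 and 161 in WT chromatin. The 3 WT inputs of batches 1 to 3 were the highest, and the other 4 WT inputs lay within 161 to 172. Pre-immune serum gave 104 and 0 U peaks for Rb2 and 41 for Rb. The library with none is a list of a single peak, and it is included in each count of libraries below unless stated.

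Within a batch, antibody libraries had slightly fewer U peaks than the input, in 9 of 10 batches. The mean difference was -0.44 ± 0.51 in log2(number + 1) (SD, n = 10 batches, p = 0.0195 in an exact permutation test that flips the sign of each batch, two-sided like all tests here, adjusted over the 10 tests of the report 0.0279), and it ran from -1.27 in batch 2 to 0.32 in batch 4. Without batches 1 to 3, an alternative chosen after the values had been seen, it was -0.16 (exact permutation p = 0.156). The share of the list differed in all 10 batches: 1.87% to 15.5% of antibody peaks lay on U (median 4.47%), against 20.1% to 67.7% of input peaks (median 61.0%). The mean difference in share was -48.6 ± 17.1 percentage points (SD, n = 10 batches, exact permutation p = 0.00195, the smallest that 10 batches allow, adjusted 0.00488). Antibody lists were longer, with 1001 to 5636 peaks, against 193 to 2359 in input lists. The lists carry no score and no number of reads, so that a missing peak means only that none was called, and the depth behind each list is unknown here. Antibody libraries had more U peaks than the pre-immune libraries, by 3.09 in log2(number + 1) (exact permutation test of 13 against 3 libraries, p = 0.00357, adjusted 0.00714), a test that treats libraries of a batch as independent. Within batches 6 and 7, which hold the pre-immune libraries, the difference did not pass (4.13 with the batches of the labels, exact permutation p = 0.0833, the smallest that its 12 arrangements allow, and 2.45 with those of the study's table, p = 0.417). Without the pre-immune list of a single peak the difference over all libraries was 1.08 (exact permutation p = 0.0190). U took 1.87% to 15.5% of the antibody lists (median 4.47%), against 16.7% and 10.8% of the pre-immune lists of 621 and 379 peaks, a difference in share that was not tested.

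**Figure D1:**
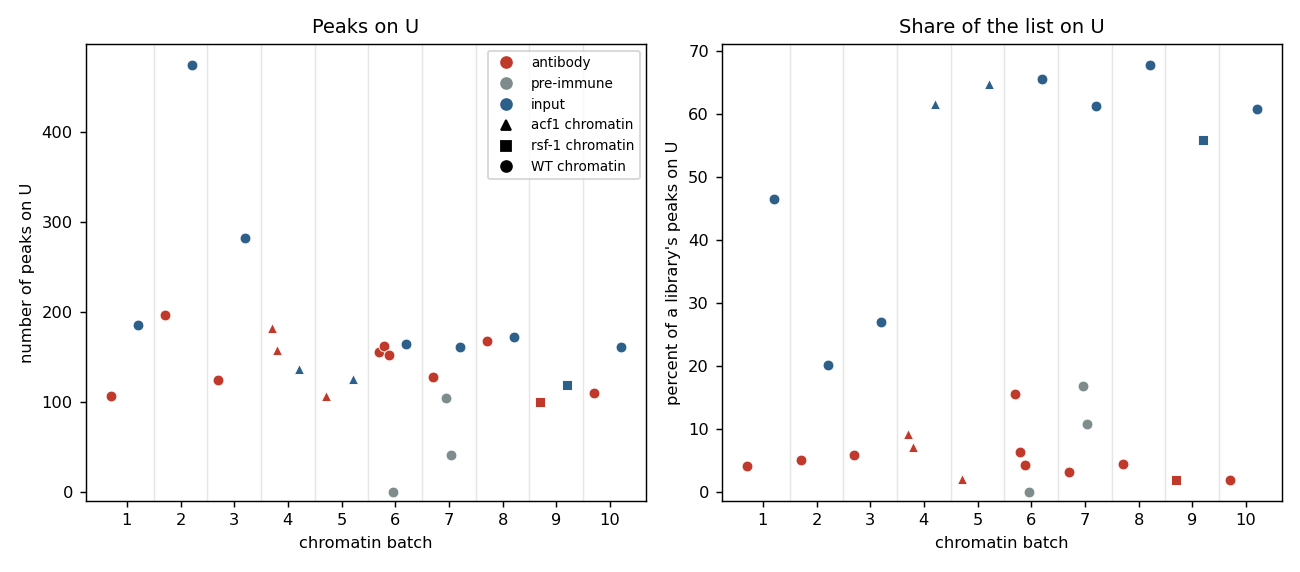
Number of peaks on U (left) and percent of each library's peaks that lie on U (right), by chromatin batch; 1 point per library, coloured by antibody, pre-immune serum or input and shaped by genotype. The numbers overlap between antibody libraries (100 to 196) and inputs (119 to 474), whereas the shares do not (1.87% to 15.5% against 20.1% to 67.7%).

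A small set of U regions came back in nearly every library, while the share seen once was near that of all merged regions. Of the 824 regions, 359 (43.6%) were called in 1 library alone, against 41% over all merged regions and 58.1% on the Het sequences. The other 465 were called in at least 2. At least 20 libraries called 44 U regions (5.34%), against 0.503% of all merged regions and 1.40% of the Het regions. No region was called in all 26, since the pre-immune list of a single peak has none on U. The remaining 25 libraries all called U:984457-984812, U:3133554-3134392, U:6109593-6110122, U:7316133-7316346, U:9089702-9090165 and U:9151165-9151429. U:5528507-5528709 and U:5698118-5698735 followed with 24 libraries, including every antibody library and every input. These 8 regions were called alike with ACF1 antibodies in acf1 embryos, with the RSF-1 antibody in rsf-1 embryos, with pre-immune serum and without any precipitation.

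Most U regions found with an antibody were also found in input chromatin. Antibody libraries called 442 U regions, and 272 of these were in at least 1 input (61.5%, exact 95% confidence interval 56.8% to 66.1%). This compares with 5.56% over all merged regions called with an antibody and 20.2% of those on the Het sequences. Such intervals cover counting error only and treat regions as independent, which neighbours on a scaffold need not be. All 13 antibody libraries called 29 of the 442 (6.56%), against 2.43% over all merged regions and 1.60% on the Het sequences. At least 10 called 59 (13.3%), against 10.2% over all merged regions and 4.97% on the Het sequences. Of the 29, 28 were in an input and 21 in every input. Starting from the input, 630 U regions were called in at least 1 input and 272 of these with an antibody (43.2%). The share was 21% over all merged regions and 20.3% on the Het sequences. All 10 inputs called 47 (7.46% of the 630), against 2.23% over all merged regions and 2.09% on the Het sequences. Each of these 47 was called with an antibody, 32 with at least 10 antibody libraries and 21 with all 13. The grid of antibody libraries against inputs shows every combination.

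**Figure D2:**
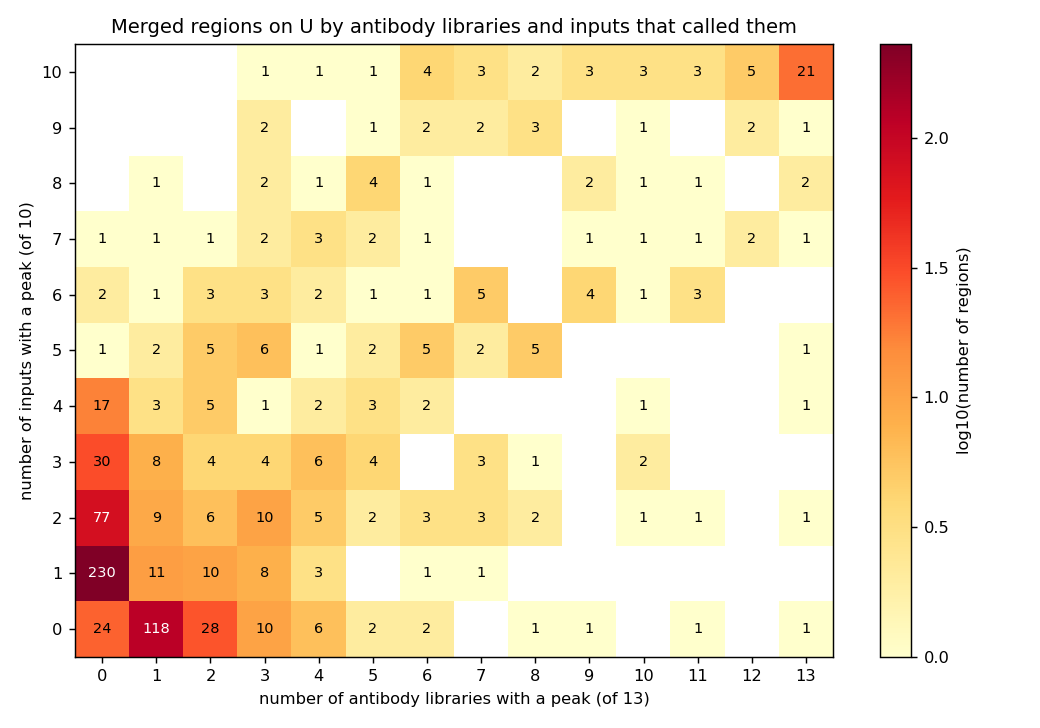
Number of merged U regions by the number of antibody libraries (x axis, 0 to 13) and of inputs (y axis, 0 to 10) with a peak; numbers in cells are regions and the colour is their log10. The 21 regions in the top right corner were called in every antibody library and every input, with pre-immune serum not counted. The 230 above the lower left corner were called in 1 input and with no antibody, and 118 were called in 1 antibody library and no input.

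The U peaks of an antibody library were matched more often by their own input than by other inputs, and more often than peaks elsewhere in the genome. Averaged over batches, 62.9% of the U peaks of an antibody library shared at least 50 bp with a peak of their own input, between 39.9% in batch 8 and 81.3% in batch 7. On the Het sequences 21.6% and on the chromosome arms 0.668% of antibody peaks did so. The U value exceeded the Het value by 41.3 ± 9.95 percentage points and the arm value by 62.2 ± 15.7 points, each in 10 of 10 batches (SD, n = 10, exact sign-flip permutation p = 0.00195, the smallest possible, adjusted 0.00488). The other 9 inputs matched 50.8% of the U peaks on average, so that the own input exceeded them by 12.1 ± 10.1 points in 9 of 10 batches (exact permutation p = 0.00781, adjusted 0.0130). Batch 3 was the exception, with 43.5% in its own input and 53.9% in the others. Single inputs also called a larger share of U than of Het regions: an input called 23.9% of the U regions on average, against 9.90% of the Het regions, a difference of 14.0 ± 2.18 points in 10 of 10 inputs (exact permutation p = 0.00195, adjusted 0.00488). The inputs themselves helped to define these regions: 630 of the 824 U regions were called in an input, against 621 of the 1215 Het regions. The outcome was thus in part built in, and its p-value gives no separate support. These comparisons set U against sequences with other copy numbers and other mappability, and the part of either in the result was not tested. List composition also differs: U took 20.1% to 67.7% of input lists but 1.87% to 15.5% of antibody lists. Where inputs have few peaks for many antibody peaks, as on the arms, the percent matched is capped. The p-values against the Het sequences and the arms are therefore not independent of the difference in share on U.

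**Figure D3:**
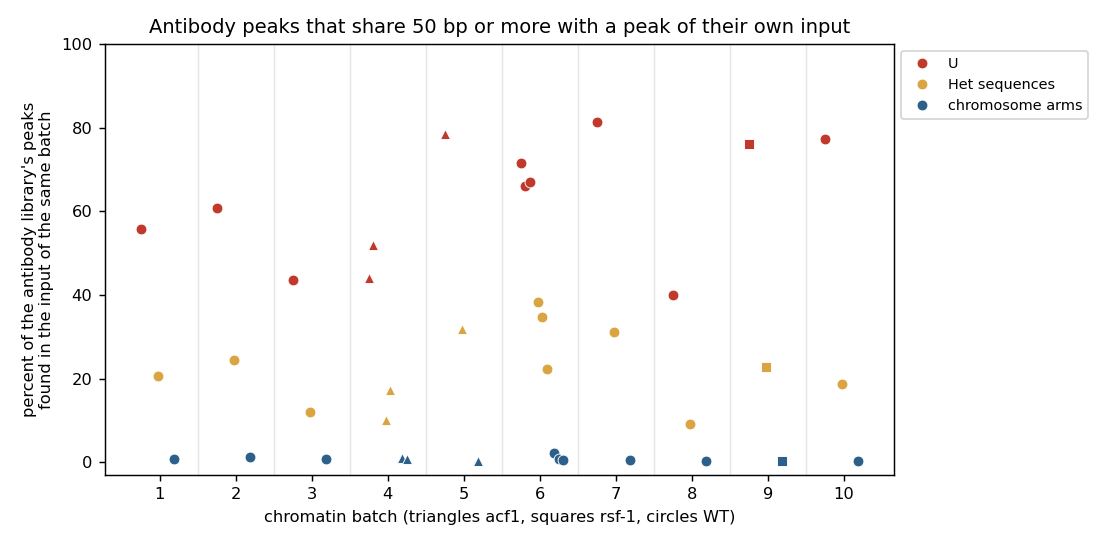
Percent of each antibody library's peaks that share at least 50 bp with a peak of the input of the same batch, for peaks on U, on the Het sequences and on the chromosome arms; 1 point per antibody library and sequence class. U lies above Het and Het above the arms in every library, with U between 39.9% and 81.3%.

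Of the 442 U regions called with an antibody, 170 had no peak in any input. Most of these were seen rarely: 118 in 1 antibody library, 46 in 2 to 5 and 6 in at least 6. The same split over all merged regions is not given here, so rarity is not shown to be particular to U. U:3396156-3396449 was the single U region called in all 13 antibody libraries and in no input and no pre-immune library. U:1841299-1841585 was called in 11 antibody libraries and missed in both acf1 libraries of batch 4. U:8901497-8901700 was called in 8, U:7425567-7425768 in 6 (the 3 with 3F1, Rb2 in batch 5 and RSF-1 in batches 9 and 10) and U:8879675-8879878 also in 6, again without an input or a pre-immune peak. U:3396156-3396449 was therefore called in chromatin of acf1 embryos with both ACF1 sera and of rsf-1 embryos with the RSF-1 serum. The antibody libraries contributed unequally to the 170. Rb1 in acf1 chromatin had 63 U regions without any input, Rb2 in WT batch 8 had 49 and Rb2 in acf1 batch 4 had 37, whereas RSF-1 in rsf-1 chromatin had 5 and RSF-1 in WT batch 10 had 6.

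The converse set, 358 U regions called in an input and with no antibody, came mostly from 1 library. The input of batch 2 called 317 of them, and 303 were called in inputs of batches 1 to 3 alone. Without the batch 2 input 169 such regions were left, and 59 without batches 1 to 3. The batch 2 list was also the longest of the inputs, with 2359 peaks against 193 to 1045 in the other 9. Batch 2 alone, its antibody library included, called 26.0% of the U regions, 25.1% of the Het regions and 13.8% of all merged regions. U:5605618-5605971 was called in 7 inputs (3 of batches 1 to 3, acf1 batch 4, WT batches 6 and 8, and rsf-1) and with no antibody. U:3896074-3896364 was called in 6 inputs and no antibody library. U:7671892-7672094 was called in all 7 WT inputs and in the rsf-1 input but with 1 antibody (Rb1 in WT chromatin), and in neither acf1 input. U:8417937-8418143 was called in all 10 inputs but in 3 antibody libraries only, and U:5294377-5294684 in 9 inputs and 3 antibody libraries.

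Pre-immune serum called 115 of the 824 U regions (14.0%), against 6.43% of all merged regions and 16.2% of the Het regions. An antibody library also called 89 of them and an input 77, while 24 were called with neither. Both pre-immune libraries with U peaks called 28, which is 24.3% of the 115. Of these 28, 25 were found with an antibody and 22 in an input. U:445027-445227, U:4983061-4983266 and U:6476582-6476785 were called in both pre-immune libraries and in no other. U:6386134-6386341 was called in both and in 1 antibody library (3F1 in batch 3). U:1089398-1089956 was called in both and in 9 antibody libraries, but in no input. In their own input, as the labels give the batches, 39.4% (Rb2) and 41.5% (Rb) of the pre-immune U peaks were found.

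The number of U peaks did not separate acf1 from WT chromatin in the Rb1 and Rb2 libraries. The acf1 inputs had fewer U peaks than every WT input, but their lists were also shorter. The libraries made with Rb1 or Rb2 had 182, 158 and 107 U peaks in acf1 chromatin, against 155, 162, 128 and 168 in WT chromatin, and the values overlapped. The difference was -0.07 in log2(number + 1) (exact permutation test of 3 against 4 libraries, p = 0.743, where 0.0286 is the smallest possible), and the share on U differed by -1.26 percentage points (exact permutation p = 0.8). Both changed sign without Rb2 in acf1 batch 5 (0.15 and 0.763 points), and the share also without Rb1 in WT chromatin (1.44 points). The acf1 inputs had 136 and 125 U peaks, below every one of the 7 WT inputs (161 to 474), with a difference of -0.68 in log2(number + 1) (exact permutation test of 2 against 7 inputs, p = 0.194, adjusted 0.243). Set against the WT inputs of batches 6, 7, 8 and 10 alone, the difference was -0.33 (exact permutation p = 0.0667, the smallest of 15 splits). The acf1 input lists held 221 and 193 peaks in all, against 250 to 2359 in the WT inputs. Their share on U was 61.5% and 64.8%, within the 60.8% to 67.7% of the WT inputs of batches 6, 7, 8 and 10. In batches 1 to 3 the WT share was 20.1% to 46.5%. The rsf-1 input had 119 U peaks in a list of 213.

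No U region separated all acf1 from all WT libraries, and few did so within the Rb1 and Rb2 libraries or within the inputs. The 7 libraries made with Rb1 or Rb2 called 362 U regions, 166 of them in both genotypes (45.9%, against 49.7% over all merged regions called in any of the 7), 80 in acf1 chromatin alone (22.1%, against 31.8%) and 116 in WT chromatin alone (32.0%, against 18.5%). On the Het sequences, WT chromatin alone had 37.9%. Of the 80, 67 were called in batch 4 only, and of the 116, 70 were also called with 3F1 or RSF-1 antibodies. All 7 libraries called 40 U regions (11.0%, against 3.71% over all merged regions), 39 of which were in an input. Every acf1 and no WT library of the 7 called 3 of the 362 (0.829%), against 0.0699% over all merged regions: U:4028237-4028599, U:5632015-5632396 and U:9289182-9289385. Outside the 7 libraries, WT chromatin did give the first of these (3F1 in batch 3, RSF-1 in batch 10 and the input of batch 8) and the second (RSF-1 in batch 10 and the 4 inputs of batches 6, 7, 8 and 10). Every WT and no acf1 library called another 3 (0.829%), against 0.0583% over all merged regions: U:29425-30027, which the acf1 input of batch 4 did call, U:141225-141853 and U:9361982-9362188. Among the inputs, both acf1 and no WT input called 4 of 622 U regions (0.643%, against 0.388% over all merged regions and 0.489% on the Het sequences). These were U:3535198-3535502, U:4029393-4029867, U:4314999-4315242 and U:6206317-6206522, each also called with Rb2 in WT batch 8. Every WT and no acf1 input called 3 (0.482%, against 0.176% over all merged regions), namely U:5768265-5768995, U:7671892-7672094 and U:8885899-8886421. Those of the 13 regions that the naming rule did not pick are named because they are few, after their values had been seen. Counts this small hang on single libraries: without Rb2 in acf1 batch 5, 17 U regions were in every acf1 and no WT library, and without Rb2 in WT batch 8 there were 14 of that kind and 21 of the opposite kind.

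The U regions with the largest difference between the shares of acf1 and WT libraries were chosen by that difference, over antibody libraries and inputs together, so that their values carry no test. U:6667664-6667969 and U:6669565-6669834, which lie close together on U, were called in all 5 acf1 libraries (3 antibody libraries and 2 inputs) and in 2 of 16 WT libraries, the antibody library and the input of batch 8. U:9325560-9325764 was also called in 5 of 5 acf1 and in 2 of 16 WT libraries, here the antibody library of batch 8 and the input of batch 10. U:4029393-4029867 and U:7221074-7221363 came next, again in 5 of 5 acf1 libraries and both with the antibody library of WT batch 8. In the other direction, U:5768265-5768995 was called in 0 of 5 acf1 libraries and in 15 of 16 WT libraries, a difference of -93.75 percentage points, and in both rsf-1 libraries. U:141225-141853, U:969279-969512, U:976661-976970 and U:3940534-3941036 were also called in no acf1 library and in 13 of 16 WT libraries each. Opposite patterns could stand close together on U: U:963831-964051 and U:974433-974638 were called in 3 acf1 libraries and, of all WT libraries, in the antibody library of batch 8 alone, while U:969279-969512 and U:976661-976970, with which they alternate, were called in no acf1 library.

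The contrast ran through the WT batches as well. A difference of at least 50 percentage points between the shares of acf1 and WT libraries, a limit set after the values had been seen, held for 28 U regions with acf1 above WT (3.40%, against 0.333% of all merged regions) and for 36 with WT above acf1 (4.37%, against 0.421%). All 28 and all 36 were called in an input. The difference counts inputs too, so that regions absent from inputs can reach it through antibody libraries only. Of the regions called with an antibody, 61.5% on U were in an input, against 5.56% over all merged regions and 20.2% on the Het sequences. The part of this in the larger shares on U was not tested. The shares of acf1 and WT libraries chose the regions, so the following counts describe them and test nothing. Of the 28, the acf1 libraries called 17 to 28 each. The WT inputs called 0, 0 and 0 in batches 1 to 3, 4 in batch 6, 6 in batch 7, 10 in batch 8 and 13 in batch 10. The Rb2 library of WT batch 8 called 23 of the 28, whereas the Rb1 library of WT batch 6 called none and the Rb2 libraries of batches 6 and 7 called 1 and 2. Of the 36, acf1 libraries called 0 to 2 each, and the WT inputs 26, 30 and 29 in batches 1 to 3, 35 in batch 6, 31 in batch 7, 13 in batch 8 and 14 in batch 10. The Rb2 library of WT batch 8 called 6 of the 36, against 29 and 22 for the Rb2 libraries of batches 6 and 7. In batches 8 and 10, antibody libraries and inputs of WT chromatin called 10 to 23 of the 28 and 6 to 14 of the 36, and those of the other WT batches 0 to 6 of the 28 and 16 to 35 of the 36. The rsf-1 antibody library and input called 6 and 5 of the 28, and 11 and 14 of the 36.

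**Figure D4:**
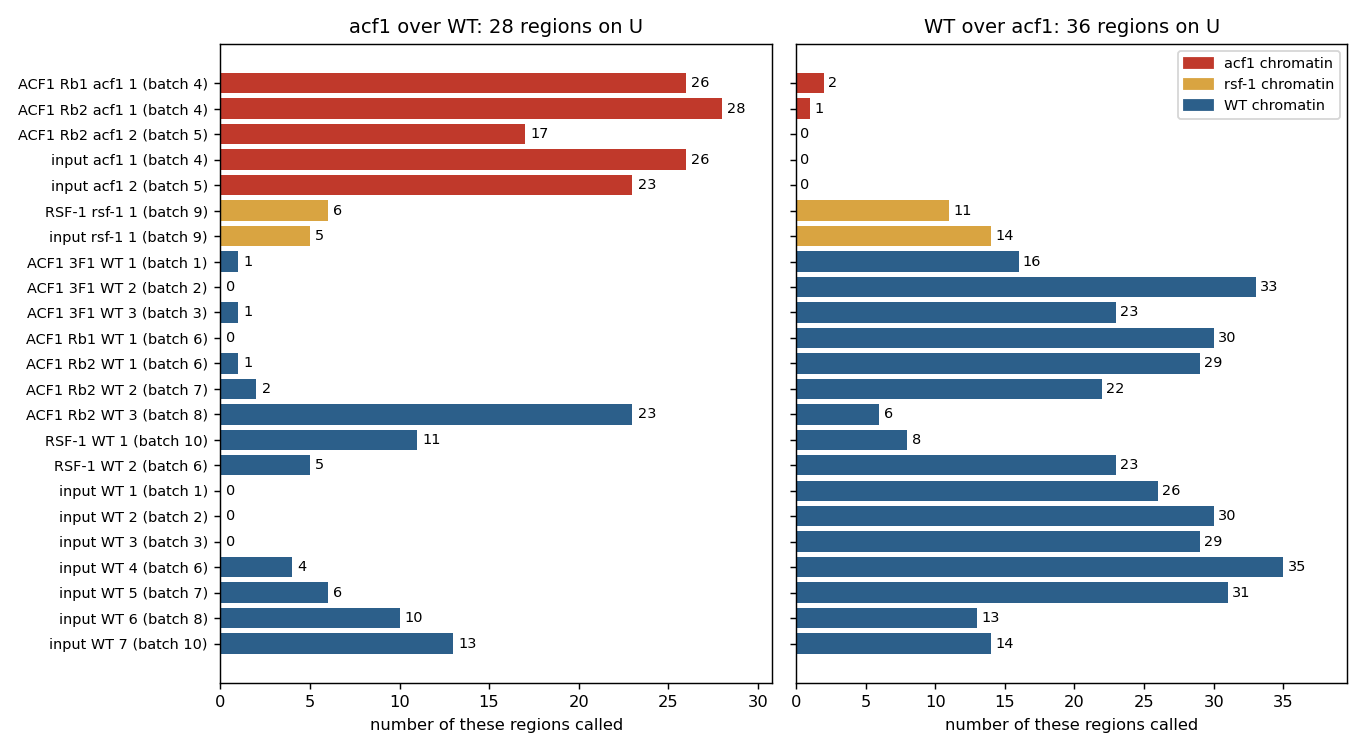
Number of U regions called by each library (bars) among the 28 regions with acf1 above WT by at least 50 percentage points (left) and the 36 with WT above acf1 (right), coloured by genotype. The Rb2 library of WT batch 8 called 23 of the 28 and 6 of the 36, away from the other Rb1 and Rb2 WT libraries, which called 0 to 2 of the 28 and 22 to 30 of the 36.

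RSF-1 antibody libraries called 208 U regions. The rsf-1 library and at least 1 WT library shared 84 of them (40.4%), against 77.2% over all merged regions called with this antibody and 46.2% on the Het sequences. All 3 libraries called 54 (26.0%), against 48.4% over all merged regions and 31.8% on the Het sequences. Of the 54, 51 were in an input and 34 in every input. The rsf-1 library alone called 16 (7.69%), near the 6.45% over all merged regions and the 6.36% on the Het sequences, and 15 of those 16 were in an input. Both WT libraries without the rsf-1 library called another 16 (7.69%), against 1.71% over all merged regions and 4.05% on the Het sequences. WT replicate 2 (batch 6) alone called 71 (34.1%, against 4.37% over all merged regions and 32.9% on the Het sequences) and WT replicate 1 (batch 10) alone 21 (10.1%, against 10.3%). The rsf-1 library shared 53.3% of the regions of either with WT replicate 1 and 34.8% with WT replicate 2, and the WT libraries shared 36.5% with each other. The WT pair thus shared no more regions than the rsf-1 library shared with WT replicate 1. The rsf-1 input without any WT input called 9 of 616 U regions (1.46%), against 1.1% over all merged regions and 1.47% on the Het sequences. Every WT input without the rsf-1 input called 9 (1.46%), against 0.426% over all merged regions and 0.489% on the Het sequences. U:2295716-2296043 was called in both rsf-1 libraries and otherwise only in a pre-immune library (Rb2 replicate 1). U:7246135-7246336 and U:8805483-8805685 were called in both rsf-1 libraries and in the WT inputs of batches 2 and 8. The single rsf-1 antibody library and the single rsf-1 input allow no replicate check.

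A mutant library, and no WT library of any kind, called 61 U regions (7.40%), against 13.4% of all merged regions. Of these 61, 50 were called in batch 4 alone and 53 in a single library. At least 2 acf1 libraries and no WT library called 8 (0.971%), near the 0.813% over all merged regions and the 0.988% on the Het sequences. Of the 8, 6 were called in batch 4 alone. U:9289182-9289385 was called in the most libraries of the 8, namely in all 3 acf1 antibody libraries and in the acf1 input of batch 4.

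Antibody libraries and inputs of the same chromatin shared more of their U regions in the median than those of different chromatin, with overlapping ranges. The percent of U regions called by both of a pair, out of those called by either, ranged from 50% to 69.2% (median 56.7%) for the 4 pairs of antibody libraries of the same batch and from 19.4% to 67.1% (median 35.1%, 74 pairs) for those of different batches. The highest same-batch value joined Rb1 and Rb2 in WT batch 6. An antibody library and the input of its own batch shared 50.5% in the median (13 pairs), against 34.4% for inputs of other batches (117 pairs). By this measure the pre-immune libraries of batch 7 shared less with their own batch, 11.7% to 27.1% with its antibody library and input and 24.3% with each other. They had only 103 (Rb2) and 40 (Rb) U regions, which caps the measure. Of these, 47.6% and 57.5% were called in the antibody library of batch 7, and 46.6% and 52.5% in its input. The study's table puts this Rb2 library in batch 6. Inputs shared 13.5% to 72.9% (45 pairs), with the highest value for WT batches 6 and 7 and the lowest for acf1 batch 5 with WT batch 2. The 2 acf1 inputs shared 66.2%, against 38.9% to 53.1% between mutant and WT inputs of batches 4 to 10. Among the Rb1 and Rb2 libraries, acf1 and WT shared 25.4% to 52.9% (median 30.9%, 12 pairs), 2 acf1 libraries 32.1% to 59.4% (3 pairs) and 2 WT libraries 26.6% to 69.2% (median 42.1%, 6 pairs). The ranges overlapped, and the highest value between genotypes joined Rb2 in acf1 batch 4 with Rb2 in WT batch 8.

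**Figure D5:**
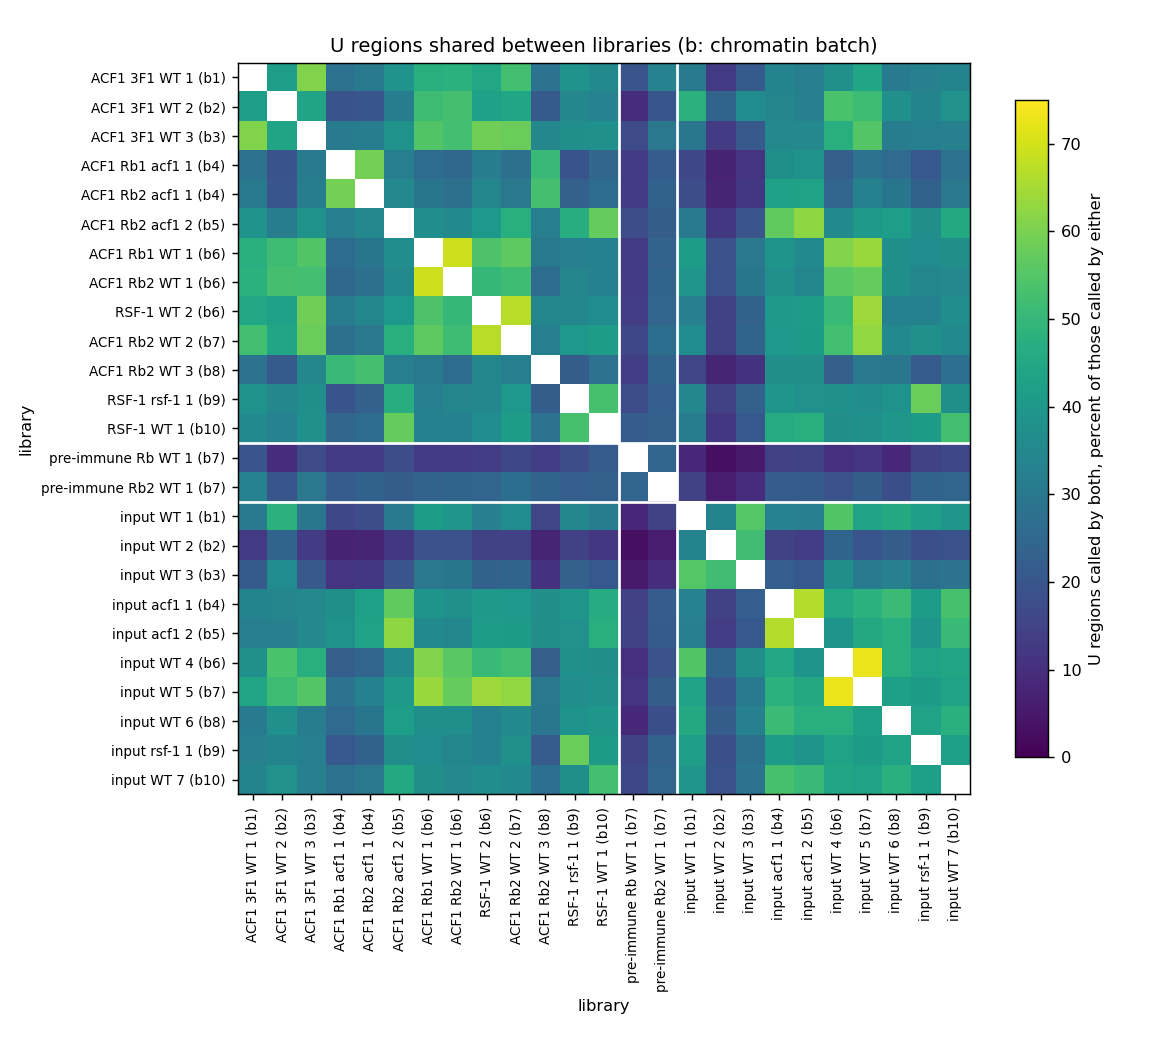
Percent of U regions called by both libraries of a pair out of those called by either, for the 25 libraries with U peaks, ordered by antibody, pre-immune serum and input and by chromatin batch (b) within each; the diagonal is left blank. The brightest cell joins the inputs of WT batches 6 and 7 (72.9%), and the row of the batch 2 input is dark, except with the inputs of batches 3 (52.0%) and 1 (33.7%).

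Of the batches, batch 2 had the most U regions that no other batch called. Batch 2 alone called 214 U regions (26.0%, against 13.8% of all merged regions and 25.1% of Het regions), of which 192 were in its input only, and batch 4 alone called 50 (6.07%, against 7.95% of all merged regions). The other 8 batches had 3 to 25 each. Among pairs of batches, 75 regions were called in batches 2 and 3 alone (9.10%, against 3.48% of all merged regions and 10.7% of Het regions). Another 21 were called in batches 4 and 8 alone (2.55%, near the 2.63% of all merged regions and the 2.55% of Het regions). Of the 21, 7 were in an input and 10 were called by all 3 antibody libraries of these batches, that is by Rb1 and Rb2 in acf1 and by Rb2 in WT chromatin. Rb2 in WT batch 8 had 59 U regions that no other WT antibody library called, and 35 of them were called by an acf1 antibody library of batch 4. The same count over all merged regions is not given here, so this sharing is not shown to be particular to U.

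The peaks themselves were 200 bp wide, and merging gave U regions of 200 to 1327 bp (median 203 bp), with 369 of exactly 200 bp and 55 over 400 bp. Regions called in at least 20 libraries were 349.5 bp wide in the median, and the starts of their peaks spread over 149.5 bp in the median. The widest, U:79553-80880, was called in 18 libraries, among them 11 antibody libraries and 6 of the 7 WT inputs but neither acf1 input nor the rsf-1 input. U:16787-17717 (930 bp) was called in 20 libraries and U:3133554-3134392 (838 bp) in 25. In 7 regions, 1 library had more than 1 peak, so that neighbouring peaks were chained into 1 region.

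Close neighbours were found for 43.9% of the U regions, and neighbours seldom had the same libraries. How common such neighbours are on other sequences is not given here. With gaps of at most 1000 bp, 362 regions (43.9%) fell into 137 clusters, 86 of them pairs and 25 with at least 4 regions, with a median span of 1092 bp. Of the 225 neighbouring pairs within clusters, 112 had no library in common and 18 had exactly the same libraries. In 31 pairs the regions overlapped by under 50 bp, the least overlap for merging, so that the merging rule had parted them. Since 43.6% of the U regions were called in 1 library alone, differing libraries are in part built in. Regions with and without an antibody library stood side by side in 51 clusters, and 41 clusters had no antibody library. In 39 clusters every region was called in the batch 2 input. The clusters with the most regions were of different kinds. U:473881-476300 held 6 regions of 1 or 2 libraries each. U:6289836-6293132 also held 6, and its last region (U:6292781-6293132) was called in 21 libraries, including all inputs, whereas the other 5 were called in at most 5. U:28414-31355 held 5 regions in 2 to 16 libraries. Its middle region, U:29425-30027, was called in 10 antibody libraries and in no Rb1 or Rb2 library of acf1 chromatin, although the acf1 input of batch 4 called it.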

How the data were processed

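ChIP-seq and input libraries of Drosophila embryos were compared by the positions of their peaks. The authors mapped the reads with Bowtie 1.1.1 to Release 5 (dm3), keeping reads with a single match, and used HOMER with its default settings to call peaks. A fragment from repeats that are identical in the assembly is therefore lost, which bears on U. The deposited files are 26 lists of the start and end positions of peaks (all 200 bp wide on U), without score or read number. Whether starts count from 0 or 1 is not settled by the files, and positions are given as deposited. How the input entered peak calling is not given in the sources used here.

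Peaks sharing at least 50 bp were merged, and a library called a region when it had a peak in it. Numbers were compared as log2 after adding 1, by exact permutation, either flipping the sign of each of the 10 batch differences or reassigning libraries to groups (two-sided, threshold 0.05, Benjamini-Hochberg adjustment over 10 tests). Intervals are exact 95% binomial intervals. Batches followed the labels. For both pre-immune Rb2 libraries the study's table of input controls gives batches 6 and 7 the other way round, and both versions were tried.

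Regions were named by rule: the 8 in the most libraries; 5 in the most antibody libraries without input or pre-immune serum; 5 with the largest excess of inputs over antibody libraries; 5 each way with the largest difference between the shares of acf1 and WT libraries (pre-immune serum not counted); 3 in both rsf-1 libraries and the fewest others; 5 in the most pre-immune libraries and the fewest inputs; the 3 widest; and those of the 3 clusters with the most regions. The regions and lists were chosen with earlier results of these data known.

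Alternatives were an overlap of at least 1 or 150 bp, regions in at least 2 libraries, untransformed numbers, no pairing by batch, a replicate block, Rb2 alone, batches 6 and 7 alone, WT inputs of batches 6, 7, 8 and 10 alone, gaps of 200 and 5000 bp, each library left out, and, chosen after seeing the data, no batches 1 to 3. The calculations ran in Python 3.11.15 (scipy 1.17.1, numpy 2.4.6) and were tested on simulated data; figures were drawn with matplotlib 3.10.9. Sequence and annotation of U were not analysed here.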

Additional observations from a re-analysis of the deposited data

Results flagged for a closer look

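The input of WT batch 2 stood apart from the other WT inputs in 2 measures, by a test for a single distant value (Dixon's) applied to 13 groups of values, which flags about 1 in 20 groups by chance. It had 474 U peaks, against 161 to 282 in the other 6 WT inputs. It also called 192 U regions found in no other library, against 0 to 13 in the other 6. Its list was the longest of the inputs, with 2359 peaks against 193 to 1045 in the other 9 inputs. The part of list length and of reads per library in these values was not tested.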

How the results depend on the processing

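The lists hold no score, so that a stricter calling threshold could not be tried. The difference in number between antibody libraries and inputs was -0.38 (exact permutation p = 0.0581) without pairing by batch and -0.16 (exact permutation p = 0.156) without batches 1 to 3. Antibody against pre-immune libraries gave 4.13 (exact permutation p = 0.0833) within batches 6 and 7 of the labels and 2.45 (exact permutation p = 0.417) by the study's table. The acf1 against WT difference in number was 0.15 and in share 0.763 points without Rb2 acf1 replicate 2, and the share 1.44 points without Rb1 WT replicate 1. Leaving out single libraries gave -0.23 to 0.15 for this number, -2.79 to 1.44 points for this share, 637 to 826 merged regions and 98 to 138 clusters. With replicate numbers as a block the acf1 against WT values were -0.08 (exact permutation p = 0.833) and -1.95 points (exact permutation p = 0.667). The numbers mark different batches and do not pair the libraries. Merged regions numbered 465 in at least 2 libraries and 493 without batches 1 to 3. Clusters numbered 211 with an overlap of 150 bp, 63 with regions in at least 2 libraries, 69 with gaps of 200 bp and 70 without batches 1 to 3. With an overlap of 150 bp, antibody regions without input rose to 283, and regions in every antibody library and every input fell to 16 and 27. The causes were not tested. No other alternative changed the direction or the side of the threshold of a test.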

Other observations

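The order of the lists is not explained in the sources used here, and it was not by position. In 22 of the 25 lists with U peaks, the first U peak lay in U:9151165-9151429, and in all 10 inputs it stood on line 2. In antibody lists, U peaks stood late in all but 1 list, with a median place at 43.8% to 95.7% of the list (median 89.3% over 13 lists), against 36.9% to 59.8% in inputs (median 47.9% over 10 lists). In the same antibody lists the median place was 72.1% to 94.0% for Het peaks and 46.9% in the median over lists for peaks of the chromosome arms. In the Rb1 list of acf1 chromatin, U peaks (43.8%) stood before arm peaks (48.1%). Within antibody lists, U peaks in regions called in every input stood earlier (median place 77.2%) than those in regions of no input (93.1%). Over the U regions that 2 inputs shared, the places had a Spearman correlation of 0.75 in the median (45 pairs), against 0.55 for 2 antibody libraries (78 pairs). These are correlations across regions within pairs of lists, which share sequence, and carry no p.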
